A study of Mus musculus with 14 samples.

Results

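The 6 untreated control libraries of cultured BFU-E (erythroid burst-forming units, the earliest progenitors committed to the red cell lineage) form 2 sets that share every label except the experiment they belong to. The 3 DMSO controls of the experiment with compound OB are called OB DMSO, and the 3 DMSO controls of the experiment with compound PD are called PD DMSO. They were chosen by their labels and are 6 of the 14 samples of the series and 6 of its 12 RNA libraries. All 6 came from fetal liver of C57BL/6 mice, carried the cell type label early erythroid progenitor, were grown in StemSpan SFEM II, a serum-free medium for blood progenitors, and received the solvent DMSO with no compound. No genetic change is named for either set. Embryonic age, sex, the number of embryos, the marker sort, the cytokines and the time in culture are not stated in the labels. Nothing in the labels ties the replicates of a set to different cultures or embryos, and the p-values therefore measure only the spread between these libraries, which may be technical in OB DMSO and between PD DMSO 2 and 3. PD DMSO 1 differed from those libraries in the level of Xist and of genes of the Y chromosome.

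BFU-E either divide to renew themselves or mature through later progenitors into erythroblasts that fill with hemoglobin. In the mouse embryo the fetal liver is the main site of this process. The transcription factors GATA1, TAL1, LMO2 and KLF1 switch on erythroid genes, stem cell factor acting through KIT and erythropoietin acting through its receptor keep the cells alive and dividing, and the glucocorticoid receptor is known to favour renewal of BFU-E over maturation. The same organ holds progenitors of granulocytes, macrophages, mast cells and megakaryocytes, and megakaryocytes share much of the GATA1 program with red cells.

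Levels are scaled FPKM (mapped fragments relative to gene length and library total, with the 6 libraries brought to one scale by the median ratio over genes), and library values are given in the order of replicates 1, 2 and 3. FPKM are per length, so levels of different genes can be set side by side. The PD tables list 54752 entries against 24054 in the OB tables, and 22282 genes are in both. The number of reads behind a value is unknown. Differences are log2, PD DMSO minus OB DMSO, on log2(scaled FPKM + 1), which understates the change of low genes, and were tested over 10218 genes with limma and Benjamini-Hochberg adjustment at 0.05. By that rule 43.6% of the genes differed between the sets, 21.6% higher and 22% lower in PD DMSO, so a list with a similar share is not set apart. Because the sets were normalized separately on different gene lists, a difference in the cells cannot be told apart from one in annotation, processing or preparation.

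Genes of the erythroid lineage were present in all 6 libraries, and they do not by themselves set the stage of the cells. Gata1, Klf1, Epor and Tfrc were each at or above 70.4 scaled FPKM in every library. Alb, the main hepatocyte product, was at 0 in 5 libraries and at 0.0356 in PD DMSO 3, and the 18 hepatocyte markers together reached at most 3.51 scaled FPKM. One library of each set stood apart from the other 2. PD DMSO 1 carried higher late erythroid and megakaryocyte genes. OB DMSO 1 carried higher megakaryocyte, granulocyte and p53 target genes. The results that rest on these libraries are given with and without them. Across genes, log2 levels correlated at 0.963 to 0.988 (Pearson r) among the OB DMSO libraries, at 0.952 to 0.977 among the PD DMSO libraries and at 0.797 to 0.874 between the sets.

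Both control sets expressed the erythroid transcription program at high levels. Of 24 tested erythroid regulators (of 25 listed), 5 were higher and 4 lower in PD DMSO, a share below that over all genes, and their median difference was 0.35 against −0.04 over all genes. Klf1, the activator of beta-globin and many other erythroid genes, was at 276, 230.4 and 245 scaled FPKM in OB DMSO and at 221, 167 and 165 in PD DMSO. The groups did not overlap, and the difference of −0.45 ± 0.16 SE, adjusted p = 0.0467 was at the edge of the threshold. Gata1, the central erythroid regulator, was at 184, 146 and 146 in OB DMSO and at 154, 119.6 and 119.5 in PD DMSO. PD DMSO 1 lay inside the OB DMSO range, and the difference of −0.28 ± 0.16 SE, adjusted p = 0.204 did not pass. Lmo2, the bridging protein of the TAL1 and GATA1 complex, stood at 282, 242 and 268 in OB DMSO and 198, 143 and 145 in PD DMSO, lower in every PD DMSO library (−0.71 ± 0.16 SE, adjusted p = 0.00882). Gfi1b, a repressor needed for erythroid and megakaryocytic maturation, was also lower in PD DMSO, at 159, 119 and 107 in OB DMSO against 83.7, 75.8 and 79.6 in PD DMSO (−0.66 ± 0.17 SE, adjusted p = 0.015). Klf1 did not pass without OB DMSO 1, 2 or 3 or PD DMSO 2 or 3 (differences of −0.51 to −0.38, adjusted p = 0.0873 to 0.14). Gfi1b did not pass without PD DMSO 2 (a difference of −0.63 and adjusted p = 0.0515). Tal1 was at 109.5, 85.04 and 78.2 in OB DMSO and 151, 85.6 and 88.8 in PD DMSO, with overlapping groups (0.22 ± 0.24 SE, adjusted p = 0.498). Without PD DMSO 1 the sign of Tal1 turned (a difference of −0.05 and adjusted p = 0.843). Zfpm1, which encodes the GATA1 partner FOG1, was higher in PD DMSO, at 154, 65.8 and 69.4 in OB DMSO against 198, 145 and 203 in PD DMSO (1.01 ± 0.32 SE, adjusted p = 0.0336), although OB DMSO 1 exceeded PD DMSO 2. Zfpm1 did not pass without OB DMSO 2 or 3 or PD DMSO 1 or 3 (differences of 0.79 to 0.94, adjusted p = 0.0878 to 0.119). The counts over the list also moved with single libraries, to 6 and 2 without OB DMSO 1, 0 and 2 without OB DMSO 2, 0 and 2 without OB DMSO 3, 3 and 3 without PD DMSO 1, 4 and 1 without PD DMSO 2 and 2 and 3 without PD DMSO 3 (higher and lower), and with the scale, to 12 and 0 with equal totals over the shared genes. The shares of all genes moved too. In the order of these libraries 22.9, 15.6, 14.9, 20.9, 19.3 and 19.5% of all genes were higher. The shares lower were 24.0, 14.1, 13.3, 21.4, 18.7 and 19.3%. With equal totals they were 35.3% higher and 9.61% lower. These shares are the background for every count below under the same setting.

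The order of levels among these regulators is given here by the means of each set. In OB DMSO they were 264 ± 20.4 (SD, n = 3) for Lmo2, 251 ± 23.3 for Klf1, 175 ± 32.5 for Nfe2, 159 ± 21.8 for Gata1, 128 ± 26.9 for Gfi1b, 96.4 ± 49.8 for Zfpm1 and 90.9 ± 16.5 for Tal1. In PD DMSO they were 279 ± 128 for Nfe2, 184 ± 31.6 for Klf1, 182 ± 32.2 for Zfpm1, 162 ± 31.3 for Lmo2, 131 ± 19.9 for Gata1, 108 ± 36.7 for Tal1 and 79.7 ± 3.94 for Gfi1b. In OB DMSO the neighbours Lmo2 and Klf1, Nfe2 and Gata1, and Zfpm1 and Tal1 differed by less than the SD of either, as did Klf1, Zfpm1 and Lmo2 in PD DMSO. Nfe2, a factor of late erythroid and megakaryocyte genes, led in PD DMSO and was highest in PD DMSO 1, at 213, 153 and 160.5 in OB DMSO and 427, 212 and 198 in PD DMSO (0.59 ± 0.29 SE, adjusted p = 0.133).

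**Figure D1:**
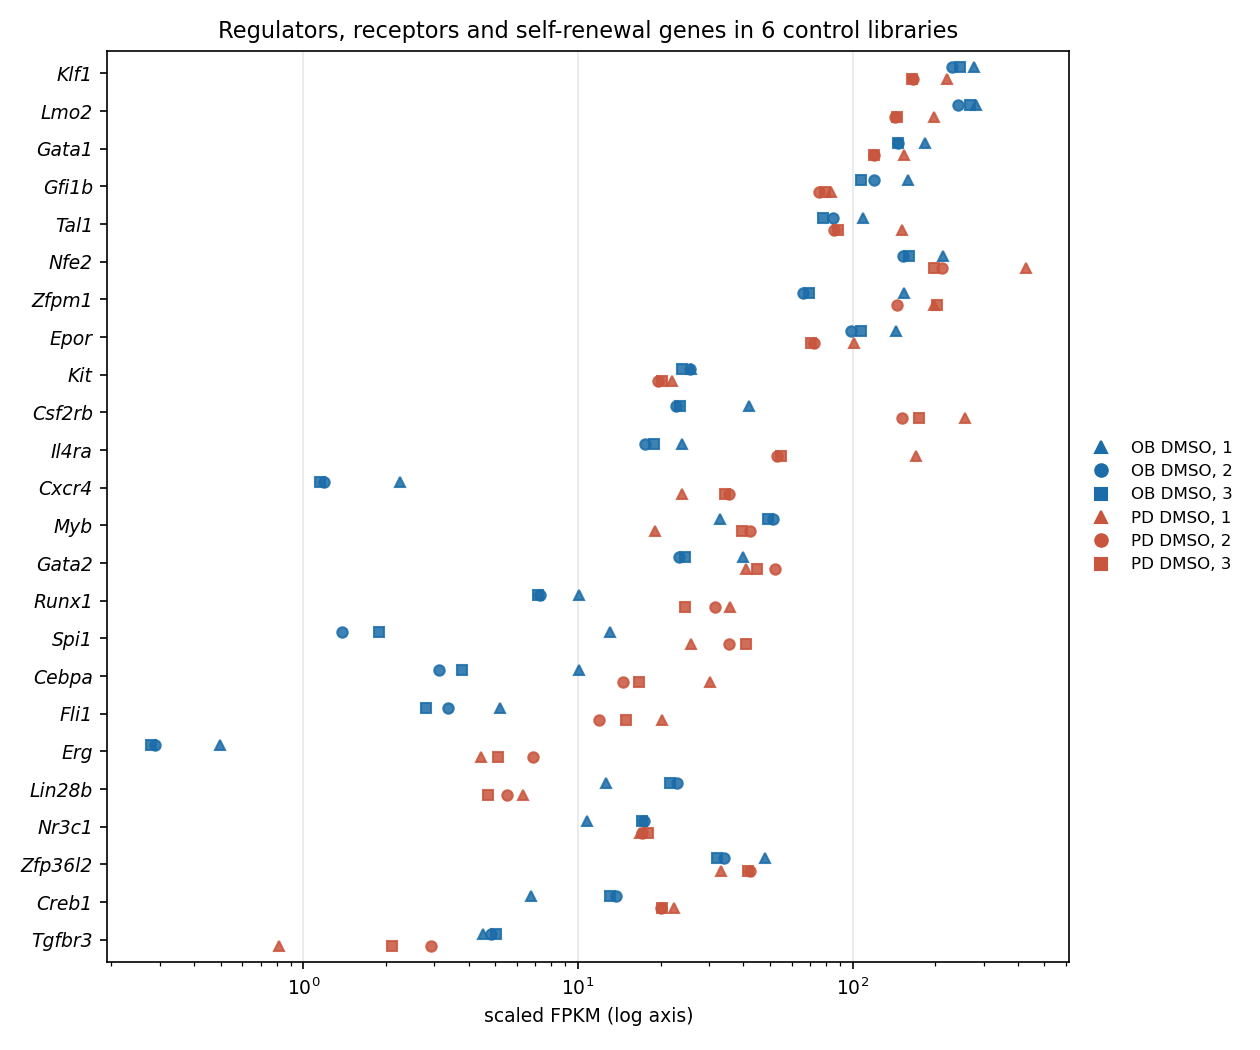
Scaled FPKM (log axis) of 24 regulators, receptors and self-renewal genes, with 1 point for each library, OB DMSO in blue and PD DMSO in red, and the replicate number as the symbol. Klf1, Lmo2 and Gfi1b lie lower in every PD DMSO library, and Cxcr4, Csf2rb, Erg, Runx1 and Spi1 lie higher.

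Several regulators of stem cells and of other blood lineages were higher in PD DMSO. Of 24 tested genes (of 30 listed), 11 were higher and 1 was lower, with a median difference of 0.72, beside 21.6% of all genes higher. Of the members with a mean of at least 1 in each set, 8 of 21 were higher, beside 17.3% of all genes so chosen. Spi1, which encodes the myeloid factor PU.1, was at 13.1, 1.39 and 1.88 in OB DMSO and 25.8, 35.4 and 41.02 in PD DMSO (2.91 ± 0.61 SE, adjusted p = 0.00684). The groups did not overlap, but OB DMSO 1 lay well above the other OB DMSO libraries, and Spi1 had one of the 3 widest ranges within that set among the listed genes. Runx1, needed for the origin of blood stem cells and for megakaryocytes, was at 10.1, 7.27 and 7.15 in OB DMSO and 35.7, 31.5 and 24.5 in PD DMSO (1.78 ± 0.21 SE, adjusted p = 3.4e-04). Gfi1, a granulocyte and stem cell repressor, was under 1 in OB DMSO (0.886, 0.266 and 0.186) and at 9.41, 12.4 and 12.2 in PD DMSO (3.12 ± 0.24 SE, adjusted p = 4.9e-05). Cebpa, the granulocyte fate factor, was at 10.1, 3.12 and 3.79 in OB DMSO and 30.3, 14.6 and 16.6 in PD DMSO (1.77 ± 0.41 SE, adjusted p = 0.00934). Erg, a stem cell and megakaryocyte factor, was at 0.498, 0.288 and 0.279 in OB DMSO and 4.45, 6.86 and 5.11 in PD DMSO (2.24 ± 0.22 SE, adjusted p = 1.4e-04). Lin28b, the fetal RNA-binding protein that blocks let-7 microRNAs, was the member lower in PD DMSO, at 12.6, 22.99 and 21.7 in OB DMSO against 6.29, 5.52 and 4.72 in PD DMSO (−1.59 ± 0.25 SE, adjusted p = 0.00154).

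Several genes of the earliest stem cells were at or near 0 in both sets. Hoxa10 was at 0 in all 6 libraries, and Hoxa9 and Mecom were each listed above 0 in 1 library, at 0.0597 in OB DMSO 1 and 0.152 in PD DMSO 2. Cd34, a surface protein of early progenitors, was at 1.39, 0.422 and 0.269 in OB DMSO and 2.21, 3.15 and 3.26 in PD DMSO (1.24 ± 0.28 SE, adjusted p = 0.00906). Myb, needed for the growth of definitive progenitors, was at 32.8, 51.2 and 49.1 in OB DMSO and 19.1, 42.3 and 39.5 in PD DMSO with overlapping groups (−0.44 ± 0.31 SE, adjusted p = 0.282). Gata2, the GATA factor of early progenitors and mast cells, was at 39.8, 23.3 and 24.5 in OB DMSO and 40.9, 51.99 and 44.9 in PD DMSO (0.67 ± 0.22 SE, adjusted p = 0.0411). Gata2 did not pass without OB DMSO 2 or 3 or PD DMSO 2 or 3 (differences of 0.54 to 0.68, adjusted p = 0.09 to 0.145). Replicate 1 was the lowest of its set for Myb in both sets.

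The promoters of 3 pairs of genes are shown because these genes mark the programs by which the sets are described: Gata1 and Klf1 for the erythroid program both sets share, Elane and Prtn3 for granule proteases of granulocyte precursors, and Cpa3 and Cma1 for mast cell proteases. Each sequence runs from 250 bases before to 50 after the RefSeq start of the gene (GRCm38.p6), 5′ to 3′ on the gene's strand, and capitals mark matches to 5 motifs searched on both strands. These are the GATA motifs AGATAA and TGATAA, the CACCC box CCNCNCCC bound by KLF1 and related factors, the PU.1 motif GAGGAAGT and the C/EBP motif TTGCNNAA. The windows lie at chrX:7967861-7968160, minus strand (Gata1), chr8:84901732-84902031, plus strand (Klf1), chr10:79886062-79886361, plus strand (Elane), chr10:79879417-79879716, plus strand (Prtn3), chr3:20242132-20242431, minus strand (Cpa3) and chr14:55944626-55944925, minus strand (Cma1).
Gata1: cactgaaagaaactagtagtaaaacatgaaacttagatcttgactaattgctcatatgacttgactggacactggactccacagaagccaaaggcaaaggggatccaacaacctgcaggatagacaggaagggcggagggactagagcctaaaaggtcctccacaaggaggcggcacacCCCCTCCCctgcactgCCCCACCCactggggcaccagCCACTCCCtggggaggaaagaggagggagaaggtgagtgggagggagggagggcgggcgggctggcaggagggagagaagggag
Klf1: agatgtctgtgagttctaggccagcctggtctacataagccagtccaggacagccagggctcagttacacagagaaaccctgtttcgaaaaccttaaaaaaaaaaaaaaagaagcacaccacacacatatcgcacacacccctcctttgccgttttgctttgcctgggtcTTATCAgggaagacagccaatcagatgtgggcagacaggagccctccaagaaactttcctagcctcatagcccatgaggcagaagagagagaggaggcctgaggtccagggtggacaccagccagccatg
Elane: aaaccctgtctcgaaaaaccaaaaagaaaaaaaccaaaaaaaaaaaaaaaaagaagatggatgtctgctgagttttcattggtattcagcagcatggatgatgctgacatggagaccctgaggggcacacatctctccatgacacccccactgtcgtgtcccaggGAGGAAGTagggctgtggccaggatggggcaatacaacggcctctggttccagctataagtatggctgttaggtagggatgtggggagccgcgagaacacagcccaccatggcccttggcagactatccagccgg
Prtn3: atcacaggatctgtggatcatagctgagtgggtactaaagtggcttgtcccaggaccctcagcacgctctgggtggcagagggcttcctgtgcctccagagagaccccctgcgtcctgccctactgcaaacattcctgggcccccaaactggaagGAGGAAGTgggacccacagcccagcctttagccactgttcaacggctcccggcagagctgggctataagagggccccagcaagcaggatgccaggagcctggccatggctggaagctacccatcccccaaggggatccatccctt
Cpa3: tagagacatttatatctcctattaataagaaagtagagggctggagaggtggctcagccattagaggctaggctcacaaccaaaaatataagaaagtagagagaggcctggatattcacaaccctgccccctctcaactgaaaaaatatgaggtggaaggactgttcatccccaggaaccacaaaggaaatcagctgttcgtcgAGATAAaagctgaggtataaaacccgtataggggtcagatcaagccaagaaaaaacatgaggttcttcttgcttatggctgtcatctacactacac
Cma1: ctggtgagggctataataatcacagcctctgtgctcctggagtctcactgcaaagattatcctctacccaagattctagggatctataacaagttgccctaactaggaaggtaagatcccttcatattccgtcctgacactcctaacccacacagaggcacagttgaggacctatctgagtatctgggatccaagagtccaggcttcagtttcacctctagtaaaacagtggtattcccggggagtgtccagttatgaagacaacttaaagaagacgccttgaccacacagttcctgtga
The Gata1 window holds 3 CACCC boxes, a motif found in 49.5% of 32851 promoter windows of this length. The Klf1 window holds 1 TGATAA (9.05% of windows) on the reverse strand, and the Cpa3 window holds 1 AGATAA (11.2%). The windows of Elane and Prtn3, neighbours on chromosome 10, each hold 1 GAGGAAGT (3.2%). The C/EBP motif (10.8% of windows) is in none of the 6 windows, no match overlaps another, and the Cma1 window holds no match to any of the 5 motifs. A match is a description of the letters and not a site of binding.

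The receptors for erythroid growth factors did not pass the test between the sets, whereas receptors of myeloid cytokines were higher in PD DMSO. Kit, the receptor for stem cell factor, was at 25.7, 25.6 and 23.9 in OB DMSO and 22.1, 19.5 and 20.2 in PD DMSO. Epor, the erythropoietin receptor, was at 144, 98.5 and 108 in OB DMSO and 101, 72.5 and 70.4 in PD DMSO. Kit lay lower in every PD DMSO library and Epor overlapped, and neither passed the test (−0.27 ± 0.15 SE, adjusted p = 0.159, and −0.52 ± 0.20 SE, adjusted p = 0.0708). Epor passed without PD DMSO 1 (a difference of −0.68 and adjusted p = 0.0215). Of 37 tested cytokine receptors and kinases (of 40 listed), 21 were higher and 2 lower, with a median of 0.90, and 17 of 32 were higher among those with a mean of at least 1 in each set. Csf2rb, the shared signalling chain for interleukin 3, interleukin 5 and GM-CSF, was at 41.96, 22.7 and 23.5 in OB DMSO against 256, 152 and 175 in PD DMSO (2.70 ± 0.28 SE, adjusted p = 1.9e-04). Cxcr4, the receptor that holds progenitors in their niche, was at 2.25, 1.19 and 1.15 in OB DMSO against 23.96, 35.6 and 34.4 in PD DMSO (3.68 ± 0.24 SE, adjusted p = 2.1e-05), and every PD DMSO library exceeded every OB DMSO library. Il4ra, a subunit of the interleukin 4 receptor, was at 23.9, 17.6 and 18.9 in OB DMSO and 170.1, 52.9 and 54.7 in PD DMSO (1.93 ± 0.42 SE, adjusted p = 0.00689), with PD DMSO 1 far above its set. Csf3r, the granulocyte colony-stimulating factor receptor, was at 0.637, 0.311 and 0.362 in OB DMSO and 11.4, 12.8 and 17.01 in PD DMSO (3.35 ± 0.22 SE, adjusted p = 2.1e-05). The lower members were Igf2r, which clears insulin-like growth factor 2 and carries lysosomal enzymes, at 11.6, 13.4 and 13.2 in OB DMSO and 6.88, 8.13 and 7.98 in PD DMSO (−0.67 ± 0.16 SE, adjusted p = 0.0125), and Tgfbr3, described with the renewal genes. Igf2r did not pass without OB DMSO 2 or 3 (differences of −0.64 to −0.63, adjusted p = 0.0716 to 0.0717). With only genes of at least 5 scaled FPKM on average kept, 11 receptors were higher and 1 lower, beside 19.3% and 24.5% of all genes so kept. The number of receptors so kept is not reported here.

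Most genes tied to BFU-E renewal were present in both sets. Among 19 listed, 18 averaged at least 1 scaled FPKM in OB DMSO and 17 in PD DMSO. Ppara and Chrm4, described below, fell under the minimum for testing. Of 17 tested (of 19 listed), 8 were higher and 2 lower, with a median of 0.61. Nr3c1, the glucocorticoid receptor, was at 10.8, 17.4 and 17.1 in OB DMSO and 16.9, 17.1 and 18.03 in PD DMSO. Zfp36l2, an RNA-binding protein it induces in BFU-E, was at 47.9, 34.1 and 32.1 in OB DMSO and 33.1, 42.3 and 41.6 in PD DMSO. Neither passed the test (0.22 ± 0.21 SE, adjusted p = 0.421, and 0.05 ± 0.20 SE, adjusted p = 0.85), and the groups overlapped. Without OB DMSO 2 or 3 or PD DMSO 2 the sign of Zfp36l2 turned (differences of −0.06 to −0.01, adjusted p = 0.876 to 0.975). Fkbp5 and Per1, both known glucocorticoid receptor targets, were higher in PD DMSO, at 8.93, 7.2 and 6.79 in OB DMSO against 12.7, 16.7 and 24.3 in PD DMSO (1.09 ± 0.24 SE, adjusted p = 0.00825) and at 8.73, 4.85 and 4.8 in OB DMSO against 11.8, 19.8 and 15.6 in PD DMSO (1.25 ± 0.27 SE, adjusted p = 0.00725). Tgfbr3, a co-receptor for transforming growth factor beta, was lower in PD DMSO, at 4.51, 4.82 and 5.03 in OB DMSO against 0.812, 2.92 and 2.11 in PD DMSO (−1.04 ± 0.29 SE, adjusted p = 0.0206). Tgfbr3 did not pass without OB DMSO 1, 2 or 3 (differences of −1.08 to −1.01, adjusted p = 0.0506 to 0.0678). Creb1, a cAMP-responsive transcription factor, was at 6.76, 13.8 and 13.1 in OB DMSO and 22.3, 20.1 and 20.3 in PD DMSO (0.90 ± 0.26 SE, adjusted p = 0.0225). Crem was at 8.51, 7.67 and 9.86 in OB DMSO and 87.6, 27.6 and 19.4 in PD DMSO (1.95 ± 0.48 SE, adjusted p = 0.0118), with PD DMSO 1 far above the rest. Creb1 did not pass without PD DMSO 1, 2 or 3 (differences of 0.85 to 0.93, adjusted p = 0.0549 to 0.0573). Egln1, an oxygen-sensing prolyl hydroxylase, was lower, at 17.1, 18.6 and 19.9 in OB DMSO against 9.57, 11.5 and 8.98 in PD DMSO (−0.83 ± 0.17 SE, adjusted p = 0.0049).

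Chrm4, the M4 muscarinic acetylcholine receptor, was the muscarinic receptor with the highest level in OB DMSO. It was at 2.18, 0.854 and 1.17 in OB DMSO and at 0.173, 1.39 and 0 in PD DMSO, and its mean fell under the minimum for testing. The other muscarinic genes were at most 0.0207 in any OB DMSO library, and in PD DMSO they reached at most 1.05 (Chrm1 in PD DMSO 3). Ppara, a lipid-sensing nuclear receptor, was at 0 in 5 libraries and at 0.00995 in OB DMSO 1. Of 26 tested G protein coupled and nuclear receptors (of 42 listed), 12 were higher and 1 was lower in PD DMSO, beside 21.6% and 22% of all genes. With the minimum mean at 5 these counts were 4 and 0, beside 19.3% and 24.5% of all genes so kept. Of those listed, 21 averaged at least 1 in OB DMSO and 26 in PD DMSO, so some were tested through PD DMSO alone and had to differ. Members called higher and lower were 7 and 0 without OB DMSO 2 and 6 and 0 without OB DMSO 3.

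Genes of other blood lineages were higher in PD DMSO. Of the markers with a mean of at least 1 scaled FPKM in each set, 13 of 13 of granulocyte precursors, 17 of 23 of megakaryocytes, 7 of 8 of mast cells and basophils, 2 of 2 of macrophages and 1 of 1 of eosinophils were higher, beside 17.3% of all genes with that minimum. With the minimum on the mean of all 6 libraries, the counts in the same order were 21 of 21, 18 of 23, 14 of 15, 6 of 7 and 5 of 5 (of 24, 24, 20, 24 and 8 listed), beside 21.6% of all genes, and the median differences 4.36, 1.78, 2.86, 1.86 and 3.24. A member that reached this minimum through PD DMSO alone had to differ, so the larger counts and the medians are a description only. In bulk RNA, more cells of a type and more RNA per cell cannot be told apart.

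**Figure D2:**
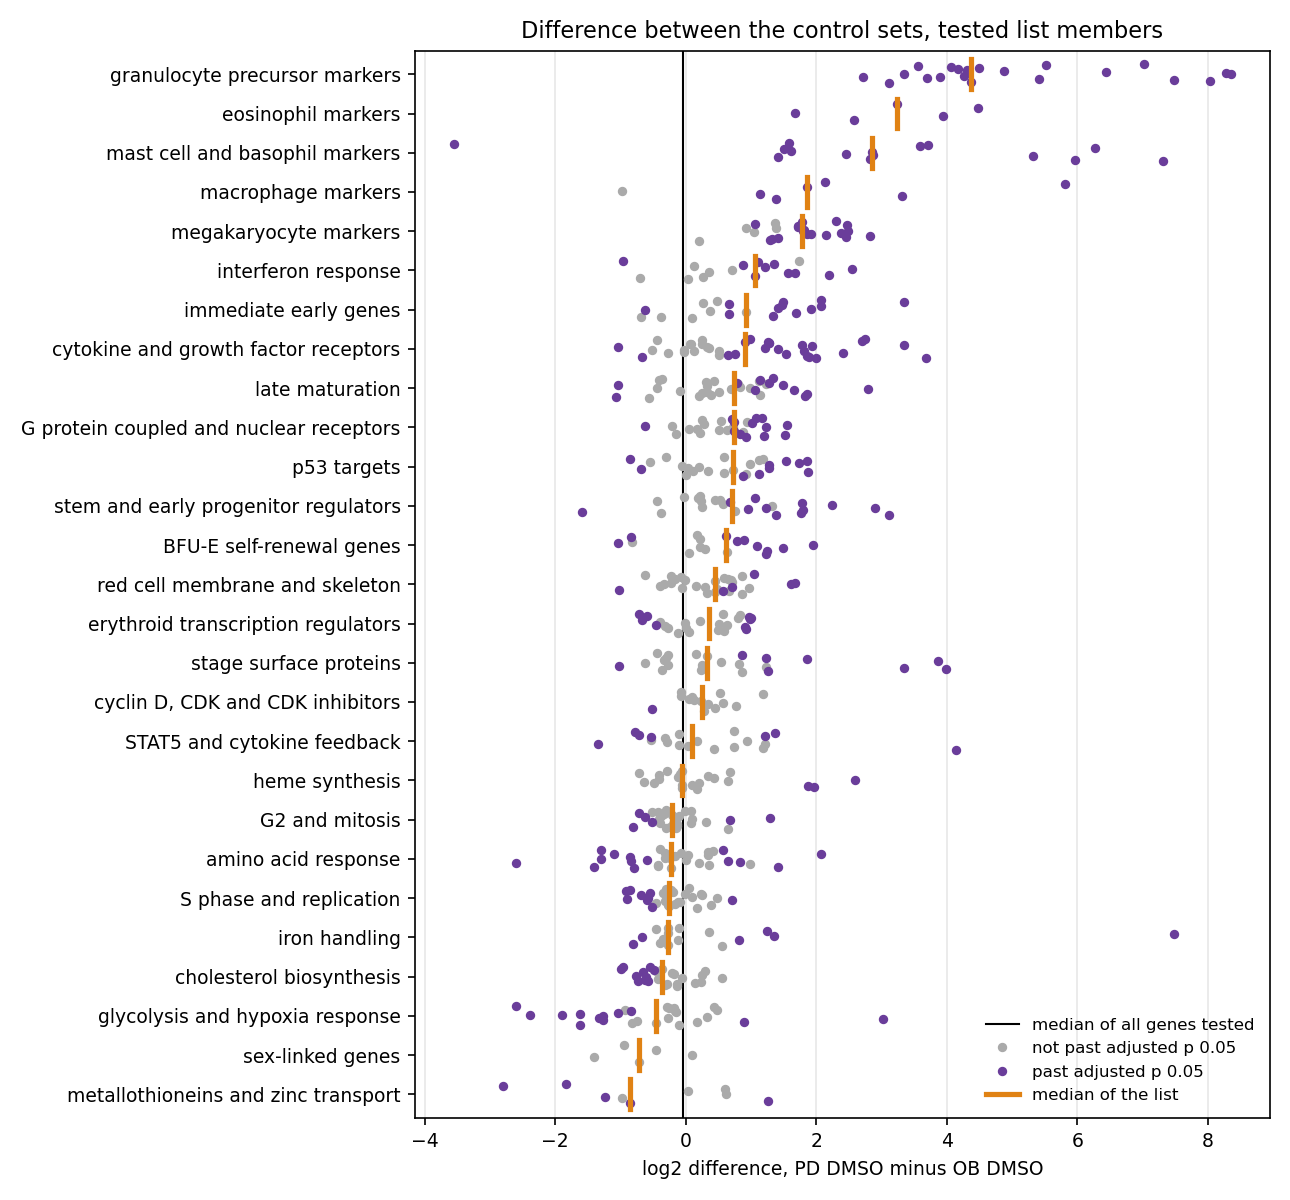
Log2 difference between the control sets (PD DMSO minus OB DMSO) for the tested members of each list with at least 5 of them, the reference and ribosomal protein genes left out, with purple points past adjusted p 0.05, grey points not past it, an orange bar at each list's median and a black line at the median of all genes. The lists of granulocyte, eosinophil, mast cell, macrophage and megakaryocyte markers have the 5 highest medians, and their members that reached the minimum through PD DMSO alone are included.

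Granulocyte genes formed the largest part of this difference. The summed level of the granulocyte precursor markers was 603, 171 and 157 scaled FPKM in OB DMSO and 13324, 16761 and 16003 in PD DMSO, a mean ratio of 49.5. In PD DMSO the list made up 2.32, 3.18 and 3.08% of all FPKM of the shared genes. S100a9 and S100a8, subunits of the calcium-binding protein calprotectin of neutrophils, were among the most abundant RNAs of PD DMSO over the genes listed in both sets. S100a9 was at 166, 50.2 and 46.1 in OB DMSO and 5572, 7051 and 6700.4 in PD DMSO (6.44 ± 0.44 SE, adjusted p = 4.3e-05), the highest mean there among genes listed in both sets. S100a8 was at 234, 71.7 and 62.1 in OB DMSO and 4102, 4672 and 4396 in PD DMSO (5.42 ± 0.45 SE, adjusted p = 9.6e-05). Globin genes are outside this ranking. In PD DMSO Hbb-bs, an adult beta-globin gene, was at 121376, 58074 and 60396 deposited FPKM. Mpo, the myeloperoxidase of primary granules, was at 68.2, 13.96 and 13.5 in OB DMSO against 464, 497 and 499 in PD DMSO (4.31 ± 0.55 SE, adjusted p = 7.3e-04), with no overlap. Of the granule proteases whose promoters are shown above, Elane was at 20.05, 4.7 and 4.74 in OB DMSO and 114, 109 and 119.8 in PD DMSO (3.70 ± 0.46 SE, adjusted p = 4.9e-04). Prtn3 was at 43.6, 10.2 and 10.1 in OB DMSO and 283, 303 and 302 in PD DMSO (4.07 ± 0.49 SE, adjusted p = 4.1e-04). Genes of later, secondary granules had the largest differences of the list, with Ltf, which encodes lactoferrin, under 1 in every OB DMSO library (0.936, 0.2 and 0.289) and at 300.1, 587 and 496 in PD DMSO (8.27 ± 0.29 SE, adjusted p = 1.5e-06). Ngp was at 5.88, 0.943 and 2.77 in OB DMSO and 908, 1425 and 1358 in PD DMSO (8.35 ± 0.42 SE, adjusted p = 6.0e-06). Chil3 was at 0.468, 0.277 and 0.145 in OB DMSO and 241, 395 and 408 in PD DMSO (8.04 ± 0.23 SE, adjusted p = 8.4e-07). Within OB DMSO, replicate 1 had the highest value for 21 of the 21 (44.8% of all genes). Without replicate 1 of both sets all 21 members were called higher in PD DMSO, in a setting that called 29.6% of all genes higher. Of the listed markers 13 averaged at least 1 in OB DMSO, and members tested through PD DMSO alone had to be higher, so this count is a description only.

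Mast cell proteases were high in PD DMSO and low in OB DMSO. Cpa3, mast cell carboxypeptidase, was at 10.3, 2.69 and 4.29 in OB DMSO and 629, 299 and 283 in PD DMSO (5.97 ± 0.44 SE, adjusted p = 4.0e-05). Cma1, a chymase, was at 11.7, 2.95 and 3.19 in OB DMSO and 863, 309.9 and 364 in PD DMSO (6.28 ± 0.52 SE, adjusted p = 8.3e-05). Mcpt4, another chymase, was at 0.119, 0.0999 and 0.0827 in OB DMSO and 433, 113 and 109 in PD DMSO (7.32 ± 0.48 SE, adjusted p = 2.1e-05). All 3 were higher in PD DMSO 1 than in the other PD DMSO libraries. Genes of basophils and eosinophils had the opposite order within PD DMSO. Mcpt8, a basophil protease, was at 3.92, 1.22 and 0.61 in OB DMSO and 2.85, 25.02 and 27.6 in PD DMSO. Prss34, another basophil protease, was at 1.58, 0.588 and 0.434 in OB DMSO and 1.41, 28.4 and 27.99 in PD DMSO. Both passed the test (2.45 ± 0.79 SE, adjusted p = 0.0378, and 2.82 ± 0.91 SE, adjusted p = 0.0386) although PD DMSO 1 lay within the OB DMSO range. Mcpt8 did not pass without OB DMSO 2 or 3 or PD DMSO 2 or 3 (differences of 1.94 to 2.33, adjusted p = 0.0807 to 0.147). Prss34 did not pass without OB DMSO 1, 2 or 3 or PD DMSO 2 or 3 (differences of 2.21 to 3.08, adjusted p = 0.0733 to 0.135). Prg2, the major basic protein of eosinophil granules, was at 6.86, 2.32 and 2.55 in OB DMSO and 31.4, 176 and 178 in PD DMSO (4.48 ± 0.68 SE, adjusted p = 0.00168). Ear1, an eosinophil ribonuclease with close paralogs, was at 0, 0 and 0.134 in OB DMSO and 0.845, 21.7 and 21.8 in PD DMSO (3.24 ± 0.90 SE, adjusted p = 0.0219). Ear1 did not pass without OB DMSO 1 or 3 or PD DMSO 2 or 3 (differences of 2.63 to 3.30, adjusted p = 0.0646 to 0.0767). Prss34 and Ear1 were among the 3 listed genes with the widest range within PD DMSO. The one marker of this list lower in PD DMSO was Tph1, the enzyme that starts serotonin synthesis, at 154, 125 and 143 in OB DMSO against 15.9, 10.5 and 8.12 in PD DMSO (−3.55 ± 0.23 SE, adjusted p = 2.1e-05), and it had the largest lower difference among the listed genes.

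Megakaryocyte genes were expressed in both sets, and replicate 1 led in each. The summed list was 1923, 751 and 820.3 in OB DMSO and 7014, 3039.7 and 3007 in PD DMSO. Replicate 1 had the highest value of its set for all 23 tested members in both sets, beside 44.8% of all genes in OB DMSO and 36.6% in PD DMSO. Pf4, platelet factor 4, was at 1009.9, 415 and 451 in OB DMSO and 3905, 1639.9 and 1595 in PD DMSO (1.92 ± 0.43 SE, adjusted p = 0.00983). Itga2b, the platelet integrin chain CD41, was at 99.3, 25.6 and 27.3 in OB DMSO and 369.9, 181 and 192 in PD DMSO (2.48 ± 0.52 SE, adjusted p = 0.00658). Vwf, von Willebrand factor, was at 17.3, 4.59 and 4.64 in OB DMSO and 74.7, 33.4 and 29.6 in PD DMSO (2.37 ± 0.51 SE, adjusted p = 0.0069). Thbs1, the platelet granule protein thrombospondin 1, differed most in the list, at 101, 33.03 and 32.4 in OB DMSO against 529, 278 and 275 in PD DMSO (2.82 ± 0.45 SE, adjusted p = 0.00172). Pf4 did not pass without OB DMSO 3 (a difference of 1.74 and adjusted p = 0.054). The 5 tested members that did not pass were Gp1ba, Gp5, Gp9, Treml1 and Tubb1. Leaving out OB DMSO 2 or OB DMSO 3 brought the members called higher from 18 to 12 and 10, where 15.6% and 14.9% of all genes were higher. Leaving out PD DMSO 1 brought them to 12, beside 20.9% of all genes. Leaving out replicate 1 of both sets brought them to 22, in a setting that called 29.6% of all genes higher.

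Markers of tissue macrophages and of lymphocytes were mostly at or near 0. Of 24 macrophage markers 8 were at 0 in all OB DMSO libraries and 6 in all PD DMSO libraries, among them Timd4, Cd5l, Vsig4, Clec4f and Spic in both sets. Most of the summed level came from Lyz2, a lysozyme that granulocytes and monocytes also make, at 28.1, 10.98 and 8.09 in OB DMSO and 643, 943 and 933 in PD DMSO (5.82 ± 0.40 SE, adjusted p = 2.6e-05). Mpeg1, a pore-forming protein of phagocytes, was at 0.846, 0.3 and 0.238 in OB DMSO and 10.1, 15.1 and 15.4 in PD DMSO (3.32 ± 0.25 SE, adjusted p = 4.4e-05). Lyz1, a second lysozyme, was the tested member that did not pass, at 4.59, 0.932 and 1.65 in OB DMSO and 0.336, 0.948 and 0.427 in PD DMSO (−0.98 ± 0.39 SE, adjusted p = 0.0705). Lyz1 passed without OB DMSO 2 (a difference of −1.31 and adjusted p = 0.0308). Cd3e, Ncr1, Klrb1c and Cd2, genes of T and natural killer cells, were at 0 in all 6 libraries. The leukocyte surface gene Ptprc (CD45) was at 0.627, 0.244 and 0.32 in OB DMSO and 11.1, 14.8 and 13.8 in PD DMSO (3.35 ± 0.21 SE, adjusted p = 1.7e-05), and the immunoglobulin receptor gene Fcgr3 at 4.22, 1.83 and 0.672 in OB DMSO and 34.5, 47.4 and 42.9 in PD DMSO (3.86 ± 0.38 SE, adjusted p = 1.5e-04).

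**Figure D3:**
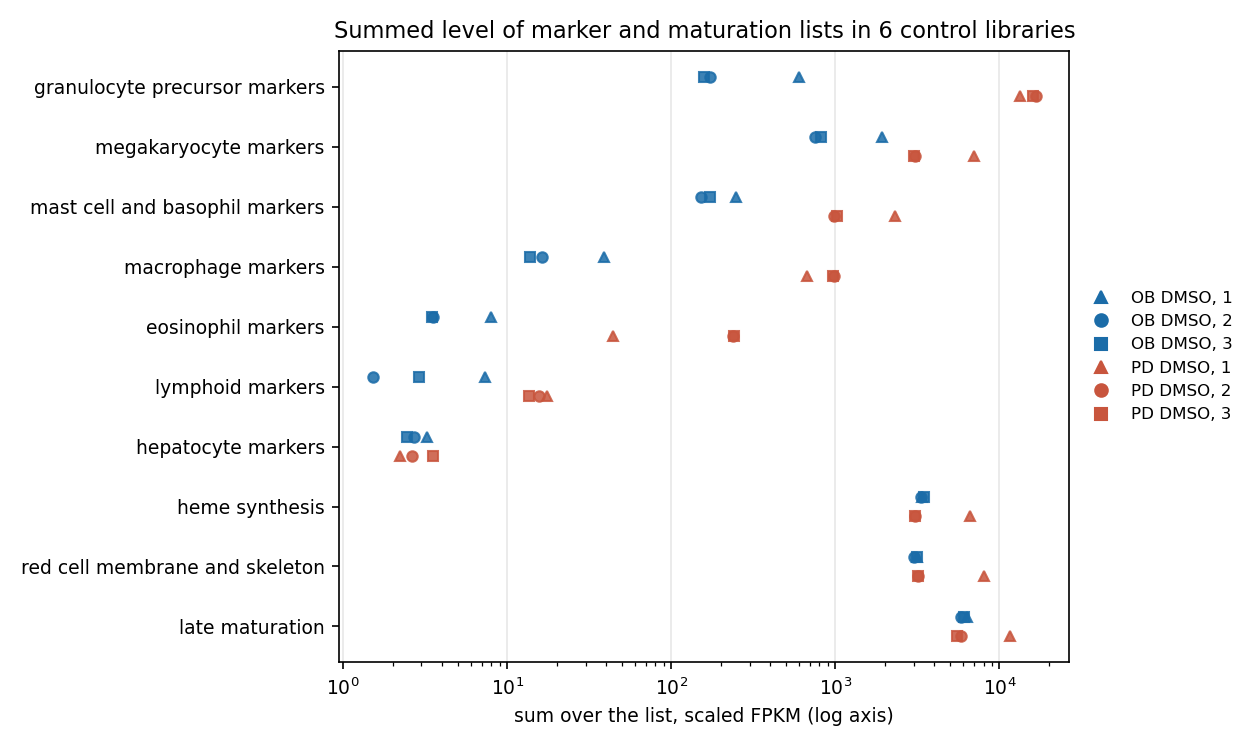
Summed scaled FPKM (log axis) of 10 gene lists, with 1 point for each library, OB DMSO in blue and PD DMSO in red, and the replicate number as the symbol. Granulocyte, megakaryocyte, mast cell, macrophage, eosinophil and lymphoid sums lie higher in every PD DMSO library, whereas heme, membrane and late maturation sums set only PD DMSO 1 apart.

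One PD DMSO library carried far more late erythroid RNA than the other 5 libraries, and the remaining PD DMSO libraries lay near the OB DMSO libraries. The summed level of 33 late maturation genes was 6305, 5796 and 6072 in OB DMSO and 11574, 5851 and 5549 in PD DMSO, that of heme synthesis genes 3366, 3346 and 3458 in OB DMSO and 6638, 3051 and 3059.5 in PD DMSO, and that of red cell membrane and skeleton genes 3158, 3022 and 3130.3 in OB DMSO and 8102, 3168 and 3206 in PD DMSO. PD DMSO 1 was the highest library in all 3 sums. Within PD DMSO it had the highest value for 29 of 32 late maturation, 27 of 29 membrane and 18 of 21 heme genes, against 36.6% of all genes tested. The median log2 difference of that library from the mean of the other PD DMSO libraries was 1.15, 0.95 and 1.00 for these lists, and −0.03 over all genes. For megakaryocyte markers it was 1.24, and for mast cell and basophil markers 0.66. The globin genes, which have whole names only in the PD set, took 32.3, 16.6 and 17.6% of the deposited FPKM of the PD DMSO libraries.

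Slc4a1, the band 3 anion exchanger of the red cell membrane, showed the pattern, at 309.6, 328 and 345 in OB DMSO and 1561, 368 and 373 in PD DMSO. Alas2, the erythroid enzyme that starts heme synthesis, was at 340.5, 308 and 321 in OB DMSO and 1219, 342 and 334 in PD DMSO. PD DMSO 1 had the highest value of the 6 libraries for both, and neither passed the test between the sets (0.87 ± 0.51 SE, adjusted p = 0.203, and 0.68 ± 0.46 SE, adjusted p = 0.259). Xpo7, an exportin that rises late in erythroid maturation, was higher in all PD DMSO libraries, at 18.99, 18.7 and 18.7 in OB DMSO against 371, 84.2 and 80.3 in PD DMSO (2.79 ± 0.53 SE, adjusted p = 0.0042). Tmcc2, another late erythroid gene, was at 249, 136 and 148 in OB DMSO against 1335, 347 and 359 in PD DMSO (1.68 ± 0.51 SE, adjusted p = 0.0321). Tmcc2 did not pass without OB DMSO 2 or 3 (differences of 1.51 to 1.57, adjusted p = 0.0783 to 0.12). Without PD DMSO 1 the difference of Tmcc2 was 1.04 (adjusted p = 0.0174) and that of Xpo7 2.07 (adjusted p = 9.0e-05). Tfrc, the transferrin receptor that brings in iron, was at 370.1, 769 and 761 in OB DMSO and 686, 429 and 413 in PD DMSO (−0.28 ± 0.31 SE, adjusted p = 0.494), and OB DMSO 1 lay below the other 5 libraries.

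Over all 6 libraries, 10 of 32 late maturation genes were higher and 2 lower in PD DMSO, 5 and 1 of 29 membrane genes, and 3 and 0 of 21 heme genes. The medians were 0.74, 0.45 and −0.06. Over all genes 21.6% were higher and 22% lower, so the membrane and heme shares lay below those of all genes. Without PD DMSO 1 the counts of these lists were 11 and 5, 4 and 5, and 3 and 9, where 20.9% of all genes were higher and 21.4% lower. Without replicate 1 of both sets they were 14 and 8, 12 and 10, and 5 and 11, in a setting where 29.6% of all genes were higher and 31.2% lower. Without OB DMSO 1, 2 or 3 the late maturation counts were 6 and 2, 6 and 2, and 5 and 2, and the membrane counts 4 and 2, 2 and 1, and 1 and 1. In these settings 22.9, 15.6 and 14.9% of all genes were higher and 24.0, 14.1 and 13.3% lower. The late maturation median over that of all genes went from 0.78 to 0.17 without PD DMSO 1, and the heme median from −0.02 to −0.20. The heme genes lower without PD DMSO 1 included Ppox, Tspo2, Urod and Fech, which encode pathway enzymes and, for Tspo2, an erythroid membrane protein. Gclm, a subunit of the enzyme that starts glutathione synthesis, was higher with and without that library, at 139.9, 114 and 118 in OB DMSO against 507, 449.6 and 405 in PD DMSO (1.86 ± 0.14 SE, adjusted p = 4.6e-05).

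Alas1, Alad and Hmox1 were the 3 heme genes higher in PD DMSO, of 21 tested, a share below the 21.6% of all genes. Alas1, the housekeeping form of the first enzyme, was at 10.6, 8.33 and 7.22 in OB DMSO and 51.1, 65.7 and 55.8 in PD DMSO (2.60 ± 0.19 SE, adjusted p = 3.4e-05). Alad, the second enzyme of the pathway, was at 81.6, 50.5 and 52.3 in OB DMSO and 307, 212 and 205 in PD DMSO (1.97 ± 0.23 SE, adjusted p = 4.0e-04). Hmox1, which breaks heme down, was at 86.03, 42.9 and 50.4 in OB DMSO and 339.9, 169.8 and 164 in PD DMSO (1.87 ± 0.34 SE, adjusted p = 0.00325). The groups of all 3 were apart. Pklr, Ctse and Icam4 were lower in PD DMSO with and without PD DMSO 1. Pklr, the red cell pyruvate kinase, was at 249, 227 and 229 in OB DMSO against 111, 110.0 and 121 in PD DMSO (−1.03 ± 0.12 SE, adjusted p = 4.0e-04). Ctse, the aspartic protease cathepsin E, was at 8.52, 9.04 and 8.98 in OB DMSO against 3.97, 3.29 and 3.81 in PD DMSO (−1.07 ± 0.17 SE, adjusted p = 0.00177). Icam4, an erythroid adhesion protein, was at 81.8, 98.3 and 109.7 in OB DMSO against 63.3, 39.6 and 40.95 in PD DMSO (−1.02 ± 0.21 SE, adjusted p = 0.00615). With the trend on gene span removed the difference of Icam4 was −0.24 and did not pass (adjusted p = 0.431). Car2, carbonic anhydrase 2, was at 1319, 1202 and 1172 in OB DMSO and 1215, 806 and 802 in PD DMSO and passed without PD DMSO 1 (difference −0.61, adjusted p = 0.00212, against −0.41 ± 0.17 SE, adjusted p = 0.0739 with it).

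**Figure D4:**
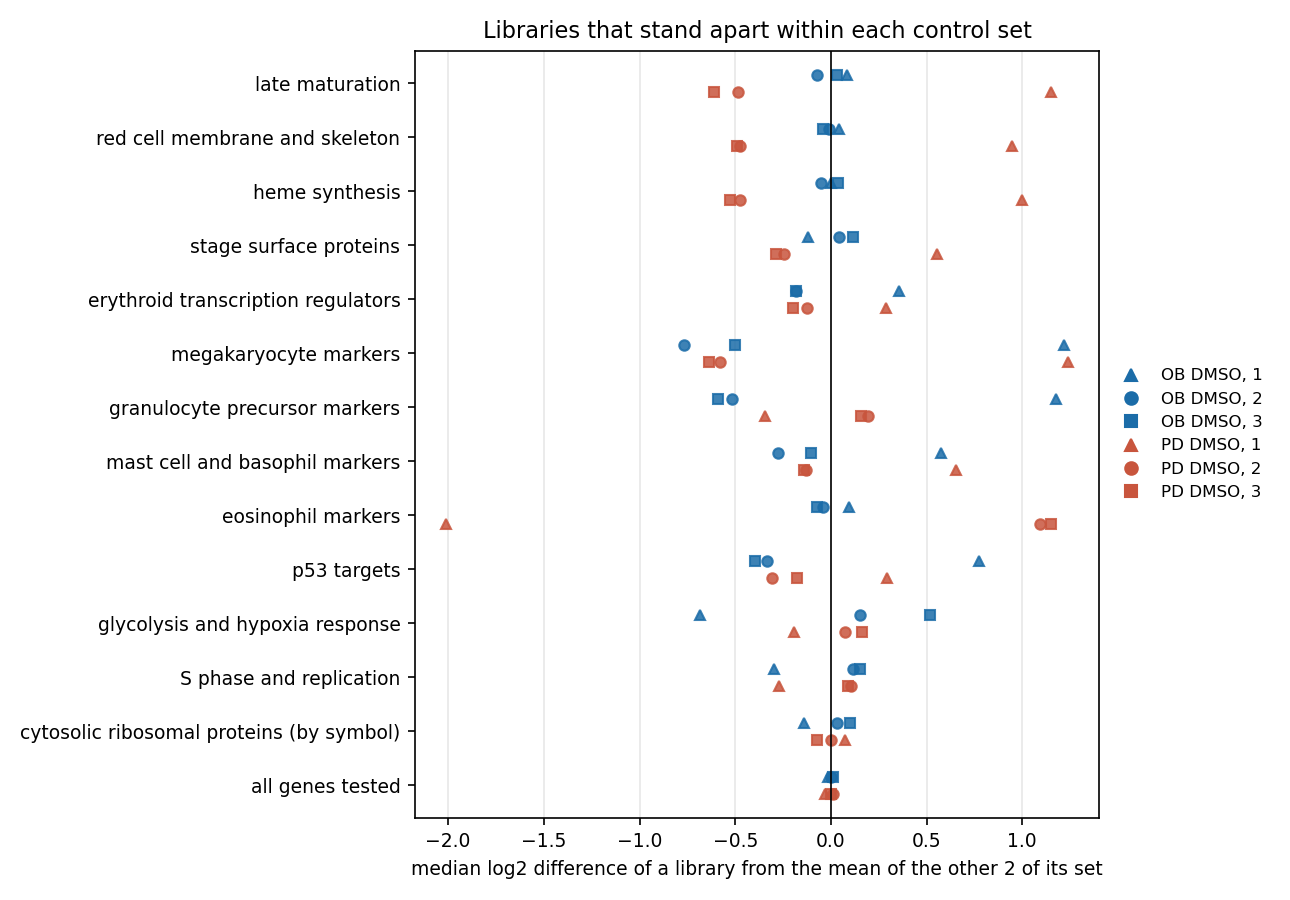
Median log2 difference of each library from the mean of the other 2 libraries of its set, for 13 gene lists and all genes tested, OB DMSO in blue and PD DMSO in red, with the replicate number as the symbol. PD DMSO 1 lies highest for late maturation, membrane and heme genes and lowest for eosinophil markers, and OB DMSO 1 lies highest for granulocyte markers and p53 targets and lowest for glycolysis and hypoxia genes. PD DMSO 1 and OB DMSO 1 both lie high for megakaryocyte markers.

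OB DMSO 1 stood apart from its set in other lists, of which the megakaryocyte markers were also high in PD DMSO 1. The median log2 difference of OB DMSO 1 from the other OB DMSO libraries was 1.17 for granulocyte markers, 1.22 for megakaryocyte markers, 0.78 for p53 targets and −0.68 for glycolysis and hypoxia genes, against −0.01 over all genes. Cdkn1a, the p21 inhibitor of cell division induced by p53, was at 319, 84.4 and 84.6 in OB DMSO and 449, 255 and 242 in PD DMSO (1.19 ± 0.52 SE, adjusted p = 0.0973). OB DMSO 1 lay within the PD DMSO range for this gene. Cdkn1a passed without OB DMSO 1 (a difference of 1.83 and adjusted p = 0.00504). Bnip3, a hypoxia-induced mitophagy protein, was at 32.9, 114 and 133 in OB DMSO and 111, 52.6 and 47.8 in PD DMSO (−0.27 ± 0.54 SE, adjusted p = 0.705). Without OB DMSO 3 the sign of Bnip3 turned (a difference of 0.09 and adjusted p = 0.92). Of 25 p53 targets 8 were higher and 2 lower in PD DMSO, and 14 and 2 without OB DMSO 1 or 5 and 2 without OB DMSO 3.

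Cell division genes were abundant in both sets, and few passed the test between them. Of 29 tested S phase genes 1 was higher and 8 were lower in PD DMSO, and of 30 genes of G2 and mitosis 2 and 4, shares at or below those of all genes except for the lower S phase genes, which were close to the background of 22%. Pcna, the replication clamp, was at 611, 805 and 828 in OB DMSO and 369, 423 and 393 in PD DMSO (−0.91 ± 0.14 SE, adjusted p = 0.00152). Mki67, the proliferation marker Ki-67, was at 100.4, 206 and 207 in OB DMSO and 159, 115 and 117 in PD DMSO with overlapping groups (−0.33 ± 0.29 SE, adjusted p = 0.378). Cdk1, the mitotic kinase and one of the 2 higher members, was at 51.6, 67.2 and 65.6 in OB DMSO against 174, 157 and 127 in PD DMSO (1.30 ± 0.17 SE, adjusted p = 7.2e-04). Without replicate 1 of both sets, 5 and 16 S phase genes and 4 and 21 G2 and mitosis genes were higher and lower, beside 29.6% and 31.2% of all genes. Mki67 passed without OB DMSO 1 (a difference of −0.68 and adjusted p = 0.0235). For the S phase genes the counts were 1 and 3 without OB DMSO 2, 0 and 3 without OB DMSO 3, 0 and 5 without PD DMSO 2 and 0 and 5 without PD DMSO 3. For the genes of G2 and mitosis they were 3 and 15 without OB DMSO 1, 1 and 1 without OB DMSO 2, 1 and 1 without OB DMSO 3, 2 and 1 without PD DMSO 2 and 2 and 1 without PD DMSO 3.

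Several genes of glycolysis were lower in PD DMSO, on each of the 4 scalings tried. Of 27 tested glycolysis and hypoxia genes (of 30 listed), 10 were lower and 2 higher, with a median of −0.45, and 16 were lower and 2 higher without OB DMSO 1. Eno1, enolase, was at 778, 1154 and 1387 in OB DMSO and 168, 237 and 218 in PD DMSO (−2.38 ± 0.22 SE, adjusted p = 1.2e-04). Tpi1, triosephosphate isomerase, was at 376, 648 and 786 in OB DMSO and 127, 166 and 174 in PD DMSO (−1.90 ± 0.27 SE, adjusted p = 9.0e-04). Pgk1, phosphoglycerate kinase, was at 255, 606 and 791 in OB DMSO and 135, 175 and 174 in PD DMSO (−1.63 ± 0.37 SE, adjusted p = 0.00888). Ldha, the lactate dehydrogenase of glycolytic cells, was at 919, 1362 and 1605 in OB DMSO and 347, 439 and 455 in PD DMSO (−1.62 ± 0.21 SE, adjusted p = 5.7e-04). None of the 4 overlapped between the sets, and in OB DMSO all 4 were lowest in replicate 1. Several of these genes have processed copies elsewhere in the genome, so their FPKM depend on how the counting shared reads among copies.

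Among the genes listed in both sets, ribosomal protein genes filled the top of the OB DMSO libraries. The rankings here cover only those genes, without the globin genes. Most ribosomal protein genes were lower in PD DMSO except under quantile normalization, where their median was −0.02 over that of all genes. Of 70 cytosolic ribosomal protein genes, taken by symbol, 59 were lower and 6 higher, with a median of −0.91, and with quantile normalization these counts were 28 and 14. They took 31.1, 31.8 and 32.8% of the FPKM of shared genes in OB DMSO and 20.1, 20.8 and 20.4% in PD DMSO. Of the 10 highest genes of OB DMSO, 9 were ribosomal protein genes, led by Rplp1 (8484, 8829.8 and 9349.6 in OB DMSO against 4509.9, 3814 and 3672 in PD DMSO, −1.16 ± 0.09 SE, adjusted p = 5.1e-05) and Rpl41 (8629.5, 8697 and 8979 in OB DMSO against 2656, 2333 and 2485 in PD DMSO, −1.82 ± 0.07 SE, adjusted p = 2.2e-06), and the other was the elongation factor gene Eef1a1. In PD DMSO the 10 highest of the shared genes included S100a9, Ftl1, Eef1a1, S100a8, Rplp1, Rpl13a, Rps12, Fth1 and Tpt1. Rpl13a was among the 6 higher ribosomal protein genes, at 2962, 3128 and 3219.7 in OB DMSO against 4374, 3798 and 3484 in PD DMSO (0.32 ± 0.10 SE, adjusted p = 0.0284). Rpl13a did not pass without OB DMSO 1, 2 or 3 or PD DMSO 1 or 2 (differences of 0.23 to 0.35, adjusted p = 0.0501 to 0.0766). Ftl1, ferritin light chain, was at 6156, 4424 and 4498 in OB DMSO and 7812, 5828 and 5579 in PD DMSO (0.35 ± 0.16 SE, adjusted p = 0.115). Ftl1 passed without OB DMSO 1 (a difference of 0.51 and adjusted p = 0.0401). Ribosomal protein genes have many near-identical copies, so their values are uncertain where the counting split reads.

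The difference between the sets also moved with the length of genes. In the 10% of tested genes with the shortest genomic span (up to 4.26 kb in GRCm38.p6) the median difference was −0.50, with 14.7% of genes higher and 44.9% lower in PD DMSO. In the 10% with the longest (at least 104 kb) it was 0.43, with 38.5% higher and 8.28% lower. The part of this in the results above was tested only by removing a smooth trend on span from each library, which left 2111 genes higher and 2005 lower. The granulocyte markers have a median span of 4045 bases and were higher in PD DMSO. The ribosomal protein genes, with a median of 3104 bases, were mostly lower (51 of them lower and 8 higher with the trend removed). The cause of either difference was not tested.

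**Figure D5:**
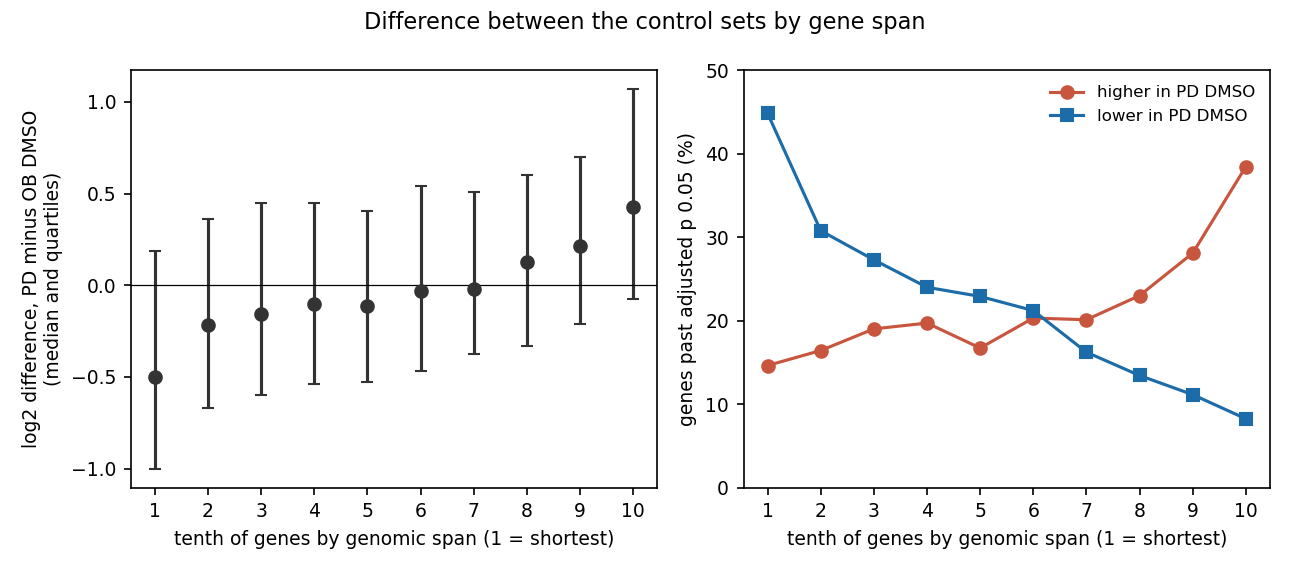
Left, median and quartiles of the log2 difference (PD DMSO minus OB DMSO) in 10 equal groups of the tested genes ordered by genomic span, and right, the percentage of genes past adjusted p 0.05 in each direction. The median goes from −0.50 in the group of shortest spans to 0.43 in the longest.

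Among genes with a mean of at least 5 scaled FPKM in both sets, the largest differences came in part from the same groups. The 10 highest in PD DMSO were Gm5483 (17.5, 4.18 and 8.13 in OB DMSO against 1133, 1475 and 1376 in PD DMSO, 7.11 ± 0.40 SE, adjusted p = 1.0e-05), S100a9, Cma1, Cpa3, Lyz2, S100a8, BC100530 (79.6, 27.3 and 21.5 in OB DMSO against 1105, 1476 and 1429 in PD DMSO), Stfa1 (74.5, 20.4 and 15.3 in OB DMSO against 957, 1105 and 1032 in PD DMSO), Mpo and Tyrobp (13.02, 5.43 and 6.05 in OB DMSO against 132, 181 and 136 in PD DMSO). Stfa1 is a stefin, a protease inhibitor of granulocytes with close copies in the mouse genome, and Tyrobp encodes the myeloid adapter DAP12. The 10 lowest were Rps27rt (3143, 3458 and 3661 in OB DMSO against 48.5, 40.5 and 59.5 in PD DMSO, −6.10 ± 0.15 SE, adjusted p = 7.1e-07), Gm10052, Ndufb4, Hypk, Taf9, Gm15421, Sf3b5, Bola2, Tph1 and Snrpd2. Apart from Tph1 the differences of these ran from −6.10 to −3.28. Taf9 and Snrpd2 encode parts of the transcription and splicing machinery, and Ndufb4 a subunit of respiratory complex I. Rps27rt is a copy of a ribosomal protein gene, so a value here can come from reads of its parent. A further 14 tested genes were at 0 in all OB DMSO libraries and 48 in all PD DMSO libraries, and are counted only.

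Sex-linked genes were spread more widely among the PD DMSO than among the OB DMSO libraries. Xist, the RNA that silences one X chromosome in females, was at 22.9, 51.3 and 46.3 in OB DMSO and 6.93, 92.7 and 97.2 in PD DMSO, the widest range of all listed genes within PD DMSO. Eif2s3y, a gene of the Y chromosome, was at 30.2, 34.6 and 31.8 in OB DMSO and 56.4, 4.31 and 5.39 in PD DMSO. PD DMSO 1 was thus low for the female and high for the male gene, PD DMSO 2 and 3 were the reverse, and the OB DMSO libraries carried both at intermediate levels. Neither passed the test between the sets (0.10 ± 0.92 SE, adjusted p = 0.935, and −1.41 ± 0.81 SE, adjusted p = 0.196). Xist passed without PD DMSO 1 (a difference of 1.30 and adjusted p = 0.0198). Eif2s3y passed without PD DMSO 1 (a difference of −2.51 and adjusted p = 1.1e-04). Without OB DMSO 1 or PD DMSO 2 or 3 the sign of Xist turned (differences of −0.52 to −0.25, adjusted p = 0.704 to 0.87). The part of sex in the differences of PD DMSO 1 cannot be told apart from those of maturity, since the same library carries both.

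The counts over all genes were 2205 higher and 2253 lower in PD DMSO, so 49.5% of the called genes were higher. This split depends on how the libraries were brought to one scale. With equal totals over the shared genes 3620 were higher and 985 lower (78.6% higher), and the median over all genes was 0.32 in place of −0.04. With FPKM as deposited 2480 were higher and 1452 lower (63.1%), with a median of 0.08. Of single libraries, OB DMSO 2 and OB DMSO 3 moved the lower calls most, to 1440 and 1362, beside 1591 and 1522 higher. A difference such as that of Gata1 or Kit, smaller than this shift, has no direction that holds on every scale. Under equal totals Gata1 and Kit turned to 0.11 and 0.10, whereas Klf1 (−0.07), Lmo2 (−0.33) and Gfi1b (−0.28) stayed below 0 but no longer passed (adjusted p = 0.735, 0.111 and 0.247). Other calls lost on another scale were those of Gfi1b and Igf2r with FPKM as deposited (adjusted p = 0.069 and 0.0642), Igf2r, Tgfbr3 and Egln1 with equal totals (0.18, 0.0832 and 0.0528), and Mcpt8, Prss34 and Pcna with quantile normalization (0.0558, 0.0555 and 0.0503). Mcpt8 and Prss34 also did not pass with FPKM as deposited (adjusted p = 0.0651 and 0.0654). With the span trend removed, Klf1 (−0.06, adjusted p = 0.777), Zfpm1 (0.87, adjusted p = 0.0712) and Eef1a1 (−0.19, adjusted p = 0.267) did not pass. Klf1 (−0.17 and −0.32) did not pass with quantile normalization or FPKM as deposited either.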

How the data were processed

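RNA of 6 DMSO control libraries was analysed. The authors deposited 1 table of FPKM per library, rounded to 2 decimals. Alignment with STAR to mm10 is named in the submitters' processing notes, and for the program that made the FPKM, the annotation and strand nothing is given in the sources used here. FPKM carry no counts, so read depth and counting error are unknown. Summed deposited FPKM were 773965 to 884616 per library. Entries whose names were cut or turned into dates, or that repeat a symbol, were left out, which left 22282 genes listed in both sets, 9 of them matched by an older symbol.

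FPKM were scaled by the median ratio over the 11205 genes above 0 in all 6 libraries (factors 0.901 to 1.12). Genes with a mean of at least 1 were tested on log2(scaled FPKM + 1) with limma 3.58.1 in R 4.3.3 (trend, robust, two-sided, 3 against 3 libraries, no block, Benjamini-Hochberg threshold 0.05). The script was tested on simulated data. Alternatives changed the scale, pseudocount, filter, block, weights or libraries. Named genes are list members, the 10 highest shared genes of each set, the 10 largest differences in each direction (mean of at least 5 in each set) and the widest ranges. The members, lists and named genes were chosen with earlier results of these data known. Gene spans and promoter windows are from RefSeq (GRCm38.p6), and spans matched 98.2% of tested genes. The treated and the CREB libraries were not used here, and values of some list members are not reported here.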

Additional observations from a re-analysis of the deposited data

How the results depend on the processing

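The number of genes higher in PD DMSO (2205) moved most with equal totals over the shared genes (3620), and the number lower (2253) moved to 1452 with FPKM as deposited, 985 with equal totals and 3385 with a weight for each library. Leaving out 1 library at a time gave 1522 to 2343 genes higher and 1362 to 2454 lower. In the comparisons below the first value of each list median, over that of all genes, is the reported one. The median of stem and early progenitor regulators (0.76) was 0.87 with a pseudocount of 0.1, 0.66 with a minimum mean of 5, 0.65 with a minimum of 1 in each set, 0.92 with library weights, 0.88 without replicate 1 of both sets, 0.56 with the gene span trend removed and 0.67 to 0.89 over single libraries left out. That of cytokine receptors (0.94) was 0.75 with quantile normalization and, in the order of the same settings up to replicate 1, 1.17, 0.60, 0.78, 1.13 and 1.08, and 0.80 to 1.10 over single libraries. The macrophage median (1.90) was 2.66, 4.65 and 3.55 under the first 3 of these, and the granulocyte median (4.40) was 5.48 with the pseudocount of 0.1. The mast cell and basophil median (2.90) was 3.82 with that pseudocount, 2.10 with the minimum in each set, 3.60 with weights, 3.89 without replicate 1 of both sets, 3.25 with the span trend removed and 2.75 to 3.43 over single libraries. The eosinophil median (3.28) was 4.86, 4.55 and 4.46 under the pseudocount, the minimum in each set and without replicate 1 of both sets, and 2.66 to 4.48 over single libraries.

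Quantile normalization gave a heme median of 0.41 (in place of −0.016) and turned the sign for iron handling (0.11), S phase (0.047), amino acid response (0.0032) and reference genes (0.23). Of single genes, equal totals turned Gata1 (0.11), Kit (0.10), Tfrc (0.11), Mki67 (0.052) and Bnip3 (0.11) above 0, and quantile normalization turned Tfrc (0.16) and Eef1a1 (0.0073). Removing the span trend turned Nr3c1 (−0.11). Leaving out 1 library at a time turned the sign in at least 1 case for Tal1 (−0.045 to 0.36), Bnip3 (−0.90 to 0.094), Zfp36l2 (−0.057 to 0.22) and Xist (−0.52 to 1.30). The cause of these changes was not tested. Of the other values of single genes under an alternative, 1661 kept their direction and their side of the threshold, 89 no longer passed and 50 newly passed.

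The labels do not say whether the replicate numbers pair the sets, and the values here do not settle it. Deviations of same-numbered libraries from their set means correlated across genes at 0.0825, 0.0475 and 0.0496, none over 0.1. Libraries with different numbers correlated at −0.084 to 0.063, and OB DMSO 3 correlated best with PD DMSO 2 (0.063). With the replicate number as a block, 2272 genes were higher and 2221 lower, and 4180 of 4458 calls were kept. FPKM carry no read depth, so no limit from counting can be given. Leaving out replicate 1 of both sets, and removing the span trend, were chosen after seeing the data.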

Other observations

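Gene groups outside the regulators and lineages were counted in the same way, and some had shares near those of all genes. Of 19 tested immediate early genes, which growth signals switch on within minutes, 11 were higher and 1 lower in PD DMSO, against 21.6% and 22% of all genes. Of those listed, 16 averaged at least 1 in OB DMSO and 20 in PD DMSO. A member tested through PD DMSO alone, such as Fos, had to differ, so the count is a description only. With a minimum of 1 in each set the list median over that of all genes was 0.75 in place of 0.96. Fos, a subunit of the AP-1 transcription factor, was at 0.328, 0.433 and 0.093 in OB DMSO and 17.8, 8.36 and 11.5 in PD DMSO (3.35 ± 0.28 SE, adjusted p = 7.2e-05), and the groups did not overlap. Of 17 interferon response genes 9 were higher and 1 lower, or 5 and 1 without OB DMSO 3. This count has the same limit, since 13 of those listed averaged at least 1 in OB DMSO and 19 in PD DMSO. With the minimum in each set the interferon median over that of all genes was 0.78 in place of 1.10. Oasl2, a member of the oligoadenylate synthetase family, was at 25.2, 18.3 and 20.1 in OB DMSO and 302, 86.5 and 79.8 in PD DMSO (2.55 ± 0.46 SE, adjusted p = 0.00318), highest in PD DMSO 1. Of 20 targets and feedback genes of STAT5, 3 were higher and 4 lower, shares below those of all genes, or 5 and 4 without OB DMSO 1 and 3 and 2 without OB DMSO 2.

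Of 25 cholesterol synthesis genes 0 were higher and 10 lower in PD DMSO, beside 21.6% and 22% of all genes. The number lower was 4 without OB DMSO 2, 4 without OB DMSO 3, 5 without PD DMSO 2 and 6 without PD DMSO 3. In the same order 14.1, 13.3, 18.7 and 19.3% of all genes were lower. Pmvk, phosphomevalonate kinase, was at 135, 154 and 149 in OB DMSO and 76.05, 71.4 and 71.3 in PD DMSO (−0.99 ± 0.13 SE, adjusted p = 6.2e-04). Of 31 amino acid response genes 5 were higher and 9 lower, and 3 and 7 without OB DMSO 2 or OB DMSO 3. With all libraries the share higher was below that of all genes and the share lower above it. Stc2, a secreted glycoprotein of this response, was at 5.26, 11.5 and 12.9 in OB DMSO and 0.476, 0.752 and 0.872 in PD DMSO (−2.60 ± 0.32 SE, adjusted p = 4.3e-04), and Psat1, a serine synthesis enzyme, at 173, 315 and 319 in OB DMSO and 79.7, 111 and 106 in PD DMSO (−1.40 ± 0.26 SE, adjusted p = 0.00334). Of 9 metallothionein and zinc transport genes 1 was higher and 4 lower, beside 21.6% and 22% of all genes. Mt1, a zinc-binding metallothionein, was at 752, 685 and 889 in OB DMSO and 141, 269 and 259 in PD DMSO (−1.84 ± 0.25 SE, adjusted p = 6.9e-04). The groups of these 4 genes did not overlap, and each was lower in every PD DMSO library.

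Of 23 stage surface proteins 7 were higher and 1 lower, with 7 and 3 without OB DMSO 1 and 7 and 4 without PD DMSO 1, and of 17 iron handling genes 4 were higher and 2 lower. Of 14 cyclin D, CDK and inhibitor genes 1 was lower and none higher. Of 16 genes often used as references 8 were lower and 0 higher, or 8 and 3 without OB DMSO 1. Of the few testable markers of other cells, 1 of 2 lymphoid markers was higher, 2 of 3 dendritic and 2 of 3 endothelial or stromal markers were higher with 1 lower in each, and Trf, the 1 testable hepatocyte marker, was higher. Only 1 dendritic and 2 endothelial or stromal markers averaged at least 1 in OB DMSO, and a member tested through PD DMSO alone had to differ. Of 5 sex-linked genes none passed with all libraries, and 1 was higher and 4 lower without PD DMSO 1.

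Globin and mitochondrial genes have whole names in the PD set only and enter no comparison. Hbb-bs, an adult beta-globin gene, was at 121376, 58074 and 60396 deposited FPKM in PD DMSO 1, 2 and 3, and Hba-a1, an adult alpha-globin gene with a near-identical copy, at 50833, 24094 and 26258. The embryonic globin genes Hbb-y, Hbb-bh1 and Hba-x were at most 2.73. Mitochondrial genes took 1.83, 2.13 and 2.11% of the deposited FPKM. Rmrp and Rpph1, small RNAs without a long poly(A) tail, had the widest ranges within OB DMSO, with Rmrp at 11.9, 2296 and 53.2 scaled FPKM there and 7.42, 0 and 0 in PD DMSO, and Rpph1 at 15.5, 1426 and 46.3 and 42.97, 18.7 and 20.3. OB DMSO 2 was the high library for both, and PD DMSO 2 and 3 are listed at 0 for Rmrp.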
